A study of Mus musculus with 12 samples.

Results

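The Frizzled receptors Fzd1, Fzd2, Fzd4, Fzd7 and Fzd8, the coreceptors Lrp5 and Lrp6 and the ligand Wnt9a were followed in mouse hearts after acute pressure overload. These 8 genes were taken by name from the 13552 genes of the deposited table, and all 8 were among the 11240 genes tested. The group was set up around Fzd2, because its level in KI TAC hearts against WT TAC hearts was among the lowest of all genes. Fzd2 was thus selected on the RPKM values of KI TAC against WT TAC hearts, and every value of the KI TAC against WT TAC comparison is given below as a description without a test.

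RNA was sequenced from the whole heart of each of 12 mice, with 3 mice per genotype (WT or KI) and operation (sham or TAC), named below as 4 groups. WT mice were C57BL/6J males, and KI mice were males of the same background in which codon 14 of Bcl2l1, the gene for the anti-apoptotic protein Bcl-xL, was changed from serine to alanine (S14A). Transverse aortic constriction (TAC) narrows the aortic arch and loads the left ventricle, and sham mice had the operation without the narrowing. All mice were operated on at 8 to 10 weeks of age, and hearts were taken 9 h later, so TAC and sham hearts share anesthesia and surgery. The knock-in is present in every cell of the animal, not only in cardiomyocytes, and the methods state that WT mice were purchased, so the genotypes are not stated to be littermates. The study describes its KI mice as homozygous, which the sample labels do not state.

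Wnt proteins are secreted, lipid-modified ligands that bind the extracellular domain of Frizzled receptors. With Lrp5 or Lrp6 as coreceptor, a bound Frizzled stabilizes β-catenin and turns on TCF/LEF target genes, whereas with other partners such as Ror2 it acts on calcium, small GTPases and cell polarity. Fzd1, Fzd2 and Fzd7 are close relatives in sequence, Fzd8 is closest to Fzd5, and Fzd4 also serves as the receptor of norrin in vessel growth. In the adult heart Wnt signaling is low and returns with hypertrophy, infarct healing and fibrosis.

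Depth ranged from 23650296 to 32455206 reads on genes, and mitochondrial genes took 6.36% to 12.5% of them. At this depth the members were covered by at least 122 reads in every heart, and Lrp5 by as many as 9894. The values are RPKM (reads on a gene scaled by exon length and by the total reads of the library), which can be compared between genes. Differences are given as the difference of group means of log2(RPKM + 1), called the log2 difference, which understates the change of genes with low values. The labels give no batch. Bcl2l1 ranged from 24.5 to 37.0 RPKM in KI TAC hearts and from 6.59 to 19.1 RPKM in the other groups, but a codon change is not visible in gene-level values, so they do not check the genotype. Cardiomyocyte, fibroblast, endothelial, mural and macrophage markers were all above 0 in every heart, and markers of the atria were not analysed here.

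In WT sham hearts Lrp5 was the most abundant member at 30.2 RPKM (range 27.6 to 32.9), followed by Fzd4 at 22.7 RPKM and Fzd1 at 12.7 RPKM. Fzd7 followed at 7.47 RPKM, and each of these neighbors was apart from the next in range. Fzd8, Fzd2, Wnt9a and Lrp6 lay between 3.39 and 7.20 RPKM, and each overlapped its neighbor in this order. In WT TAC hearts Fzd1 had the highest mean, at 29.0 RPKM, with a range that overlapped that of Lrp5. In KI TAC hearts Fzd4, Lrp5 and Fzd1 had the highest means, each overlapping the next in range, and Fzd2 came last at 2.40 RPKM, overlapping Lrp6. The plot of levels in every heart shows all members.

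In the GRCm38 annotation of GENCODE M21 all 8 are protein-coding genes, and no other gene overlaps any of them. Fzd1 (ENSMUSG00000044674, chr5:4753839-4758035, minus strand), Fzd2 (ENSMUSG00000050288, chr11:102604396-102608058, plus strand), Fzd7 (ENSMUSG00000041075, chr1:59482424-59486955, plus strand) and Fzd8 (ENSMUSG00000036904) are each annotated as 1 exon without introns. Fzd4 (ENSMUSG00000049791, chr7:89404355-89413134, plus strand) has 2 exons and Wnt9a (ENSMUSG00000000126, chr11:59306928-59333552, plus strand) has 4. The coreceptors are long genes with many exons, 23 for Lrp5 (ENSMUSG00000024913, chr19:3584828-3686564, minus strand) and 22 for Lrp6 (ENSMUSG00000030201, chr6:134446476-134566965, minus strand). Exons that overlap between transcripts were merged before counting them.

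**Figure D1:**
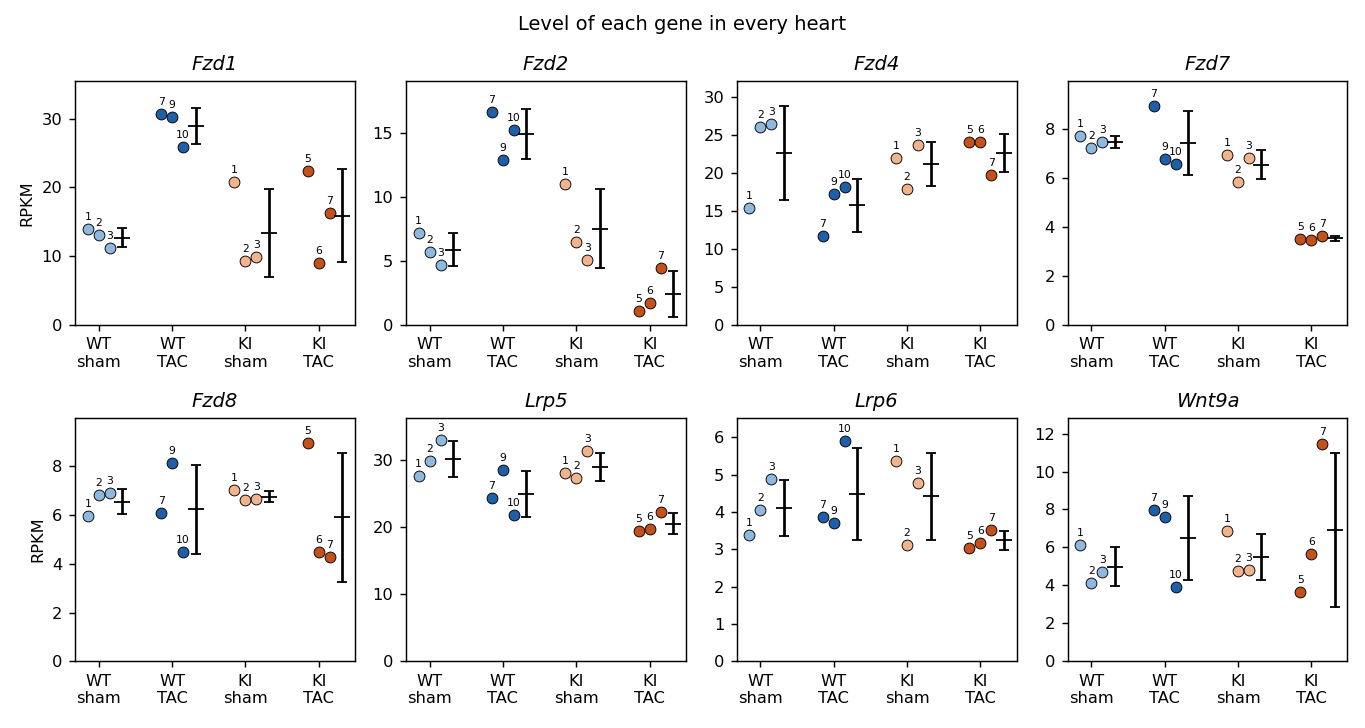
Level of the 8 genes in RPKM (linear axis from 0) in each heart, by group; points are hearts labelled by mouse number, and bars to their right are the mean and SD of 3 mice. Fzd1 and Fzd2 lay higher in all 3 WT TAC hearts than in any WT sham heart, whereas Fzd2, Fzd7 and Lrp5 lay lower in all 3 KI TAC hearts than in any KI sham heart.

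Fzd1, a receptor of β-catenin signaling, rose after TAC in WT hearts. It measured 13.9, 13.1 and 11.1 RPKM in WT sham mice 1, 2 and 3, and 30.7, 30.2 and 25.9 RPKM in WT TAC mice 7, 9 and 10. The groups did not overlap, and the lowest WT TAC heart was well above the highest WT sham heart. The log2 difference was 1.13 ± 0.31 (SE, n = 3 mice a group, limma adjusted p = 0.0299), a 2.28-fold higher mean. The call was lost when any 1 of 5 mice was left out: the limma adjusted p was 0.0599 without WT sham mouse 1, 0.0776 without WT sham mouse 2, 0.101 without WT sham mouse 3, 0.0997 without WT TAC mouse 7 and 0.0742 without WT TAC mouse 9, while the log2 difference stayed between 1.04 and 1.21. Fzd1 was the 1 member of 7 tested past the threshold in this comparison, where 11.6% of all genes passed it (6.96% higher and 4.6% lower), and Fzd2 was left out of this count because its TAC levels chose it.

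In KI hearts Fzd1 was spread widely within both groups. KI sham mice 1, 2 and 3 measured 20.7, 9.32 and 9.88 RPKM, and KI TAC mice 5, 6 and 7 measured 22.4, 8.92 and 16.3 RPKM. The groups overlapped over most of their range, since KI sham mouse 1 was nearly as high as the highest KI TAC heart. The log2 difference was 0.24 ± 0.31 (SE, limma adjusted p = 0.608, 95% interval -0.42 to 0.90). With 1 mouse left out it ran from -0.04 (without KI TAC mouse 5) to 0.58. All 3 KI TAC hearts were below all 3 WT TAC hearts, with a log2 difference of -0.91 ± 0.31 (SE).

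Fzd2, which acts mainly outside the β-catenin branch and whose expression has been linked with hypertrophy and infarct healing, went in opposite directions in the 2 genotypes. In WT hearts it measured 7.20, 5.69 and 4.68 RPKM after sham and 16.6, 12.8 and 15.2 RPKM after TAC. In KI hearts it measured 10.96, 6.45 and 5.05 RPKM after sham and 1.10, 1.66 and 4.44 RPKM after TAC. Every WT TAC heart was above every WT sham heart, every KI TAC heart was below every KI sham heart, and no KI TAC heart came near a WT TAC heart. KI TAC mouse 7 was the highest of its group and just under KI sham mouse 3. This pattern contains the values that selected Fzd2, and nothing is read from the share of all genes that had it, 0.649%.

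The log2 difference of Fzd2 was 1.22 ± 0.32 (SE) in WT hearts, -1.38 ± 0.32 in KI hearts and -2.34 ± 0.32 between the TAC groups. Both TAC groups belong to the contrast that chose Fzd2, so no test is given for these values. The neighbors of Fzd2 are given as a description. Only genes past the threshold in that contrast were put in order of their log2 difference, so the order leaves out all others. Just lower were Sox4 at -2.42 and Tnc at -2.41, and just behind it were Cilp at -2.30 and Spp1 at -2.23. Relative to WT TAC hearts the mean of the KI TAC group was 6.20-fold lower. The sham groups did not enter the choice, and there Fzd2 had a log2 difference of 0.26 ± 0.32 (SE, limma adjusted p = 1.00, 95% interval -0.42 to 0.94), with overlapping groups.

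Fzd7, the third of these relatives, fell after TAC in KI hearts and was level in WT hearts. It measured 7.71, 7.24 and 7.48 RPKM in WT sham hearts and 8.95, 6.77 and 6.57 RPKM in WT TAC hearts. KI sham hearts measured 6.93, 5.85 and 6.82 RPKM, and KI TAC hearts 3.49, 3.46 and 3.65 RPKM. The KI TAC hearts lay within a narrow range below all other hearts, and the WT groups overlapped.

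The log2 difference of Fzd7 in KI hearts was -0.73 ± 0.15 (SE, limma adjusted p = 0.00373, 95% interval -1.05 to -0.41), a 1.85-fold lower mean. It stayed past the threshold under all 18 alternatives run, with limma adjusted p from 0.00296 to 0.0237. Fzd7 was the 1 member of 7 tested past the threshold in KI TAC against KI sham, where 23.3% of all genes passed it (8.57% higher and 14.7% lower). In WT hearts the log2 difference was -0.02 ± 0.15 (SE, limma adjusted p = 0.952, 95% interval -0.34 to 0.30). The median of all genes was itself -0.10 in KI TAC against KI sham and 0.003 after median-ratio scaling, under which Fzd7 differed by -0.62 (limma adjusted p = 0.00894). Whether the change in KI hearts differs from that in WT hearts was not tested, because the difference contains the contrast that chose the group. Between the TAC groups Fzd7 differed by -0.88 ± 0.15 (SE).

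The promoters of Fzd1 and Fzd7 are shown because these are the members that passed the test, each in another genotype. The bases are RefSeq sequence of GRCm38.p6, 5′ to 3′ on the gene's strand, and end just before the RefSeq start of transcription. Fzd1 lies at chr5:4758217-4758466 on the minus strand and Fzd7 at chr1:59481897-59482146 on the plus strand. Capitals mark matches on either strand to GGGCGG (GC box), TATAAA (known as the TATA box), CTTTGA (core of the TCF/LEF site). The AP-1 site, which reads TGA and TCA with any base between, was searched too.
Fzd1: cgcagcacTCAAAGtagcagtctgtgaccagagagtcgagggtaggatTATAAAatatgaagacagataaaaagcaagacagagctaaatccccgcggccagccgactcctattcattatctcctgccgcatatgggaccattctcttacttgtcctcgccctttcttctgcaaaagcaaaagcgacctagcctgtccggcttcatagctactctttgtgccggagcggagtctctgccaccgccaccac
Fzd7: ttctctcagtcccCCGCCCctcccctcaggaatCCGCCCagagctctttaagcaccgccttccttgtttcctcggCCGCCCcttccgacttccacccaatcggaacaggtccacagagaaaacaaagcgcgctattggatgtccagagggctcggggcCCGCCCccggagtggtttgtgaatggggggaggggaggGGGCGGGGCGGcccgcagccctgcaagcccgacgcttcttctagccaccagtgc
The Fzd1 window held 1 TATA box and 1 TCF/LEF core and no GC box, whereas the Fzd7 window held 6 GC boxes, the last of them overlapping, and none of the other motifs. GC content was 51.2% for Fzd1 and 65.2% for Fzd7. Of 32851 promoters of this length, 32.7% held a GC box, 12.4% a TATA box, 13.8% a TCF/LEF core and 6.75% an AP-1 site. The GENCODE start of the gene model lies 181 bases downstream of the RefSeq start for Fzd1 and 277 bases downstream for Fzd7, so the windows stand for the RefSeq start. The table of promoters also held Fzd4 and Wnt9a, in which 7 and 5 GC boxes were found. These matches describe letters and not occupied sites.

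Fzd4, the receptor of norrin and an endothelial Frizzled, had no called change. It measured 15.5, 26.0 and 26.5 RPKM in WT sham hearts and 11.8, 17.3 and 18.2 RPKM in WT TAC hearts, with a log2 difference of -0.48 ± 0.23 (SE, limma adjusted p = 0.188). WT sham mouse 1 was low and lay among the WT TAC hearts, and with 1 mouse left out the difference ran from -0.725 (without WT sham mouse 1) to -0.30 (limma adjusted p from 0.0613 to 0.523 over all alternatives). In KI hearts it measured 22.0, 17.9 and 23.7 RPKM after sham and 24.1, 24.1 and 19.7 RPKM after TAC, with a log2 difference of 0.09 ± 0.23 (SE, limma adjusted p = 0.800). All KI TAC hearts were above all WT TAC hearts, by 0.51 ± 0.23 (SE).

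Fzd8, a receptor that can pair with Lrp6, had overlapping groups in every comparison. It ranged from 5.97 to 6.89 RPKM in WT sham, 4.50 to 8.14 RPKM in WT TAC, 6.61 to 7.02 RPKM in KI sham and 4.27 to 8.97 RPKM in KI TAC hearts. Both TAC groups were spread more widely than the sham groups. The log2 difference was -0.09 ± 0.24 in WT hearts (SE, limma adjusted p = 0.840) and -0.23 ± 0.24 in KI hearts (SE, limma adjusted p = 0.508), where it ran from -0.53 to -0.07 with 1 mouse left out.

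Lrp5, a coreceptor for β-catenin signaling, lay lower in all KI TAC hearts than in any KI sham heart. It measured 28.2, 27.3 and 31.3 RPKM in KI sham hearts and 19.5, 19.8 and 22.3 RPKM in KI TAC hearts. The log2 difference was -0.47 ± 0.16 (SE, limma adjusted p = 0.0501), which missed the threshold narrowly. It passed with a pseudocount of 0.1 (limma adjusted p = 0.0494), with no filter on low values (0.0456), with limma-voom on recovered reads (0.0489), and without WT TAC mouse 9 (0.0482), WT TAC mouse 10 (0.0419) or KI TAC mouse 7 (0.0440). After median-ratio scaling it was -0.34 (limma adjusted p = 0.158). In WT hearts Lrp5 measured 27.6, 30.0 and 32.9 RPKM after sham and 24.4, 28.6 and 21.8 RPKM after TAC, with overlap and a log2 difference of -0.27 ± 0.16 (SE, limma adjusted p = 0.298).

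Lrp6, the second coreceptor, had the lowest mean of the members in both sham groups, with a range that overlapped that of Wnt9a. It measured 3.39 to 4.88 RPKM in WT sham and 3.70 to 5.90 RPKM in WT TAC hearts, and 3.13 to 5.36 RPKM in KI sham and 3.03 to 3.51 RPKM in KI TAC hearts. The log2 difference was 0.09 ± 0.20 in WT hearts (SE, limma adjusted p = 0.804) and -0.33 ± 0.20 in KI hearts (SE, limma adjusted p = 0.243). Both comparisons overlapped, while the KI TAC hearts were below all WT TAC hearts.

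Wnt9a, a ligand known for its part in joint formation, was decided by single mice. It measured 6.11, 4.14 and 4.72 RPKM in WT sham and 7.96, 7.61 and 3.93 RPKM in WT TAC hearts. KI sham hearts measured 6.88, 4.76 and 4.82 RPKM, and KI TAC hearts 3.63, 5.68 and 11.5 RPKM. KI TAC mouse 7 was the highest of all 12 hearts and KI TAC mouse 5 the lowest, so the KI groups overlapped. The log2 difference was 0.29 ± 0.32 in WT hearts (SE, limma adjusted p = 0.589) and 0.18 ± 0.32 in KI hearts (SE, limma adjusted p = 0.715), and the latter became -0.21 without KI TAC mouse 7.

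**Figure D2:**
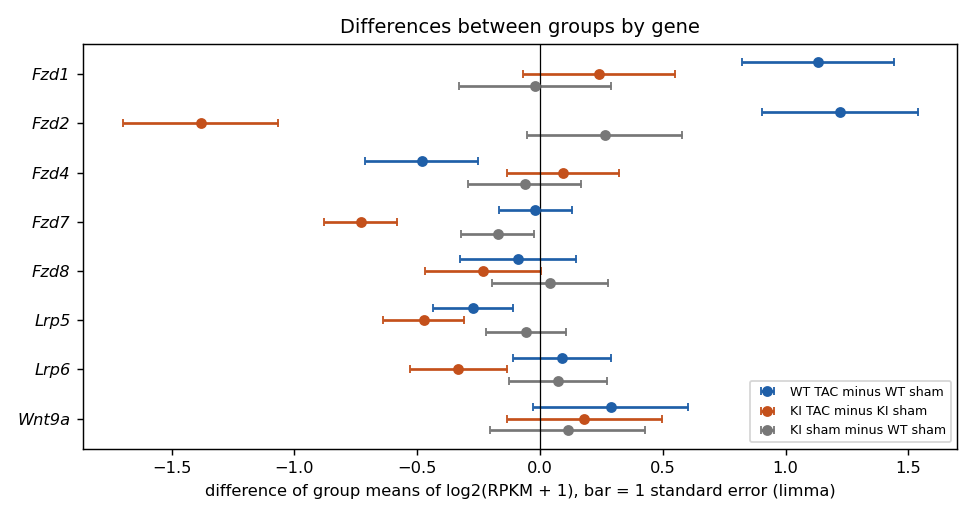
Difference of group means of log2(RPKM + 1) for the 8 genes in WT TAC against WT sham (blue), KI TAC against KI sham (orange) and KI sham against WT sham (gray), with bars of 1 standard error from limma on 12 mice. Fzd2 lies at 1.22 in WT and -1.38 in KI hearts, Fzd1 at 1.13 in WT and Fzd7 at -0.73 in KI hearts, and the sham comparison stays near 0 for all 8.

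Without TAC the genotypes did not separate at the members. None of the 8 passed the threshold in KI sham against WT sham, where 0.0178% of all genes did, and all limma adjusted p were 1.00. Across all genes that comparison had 2 calls, and 37 genes had an unadjusted limma p under 0.05. The log2 differences ran from -0.17 for Fzd7 to 0.26 for Fzd2, each with an SE of 0.15 to 0.32. Fzd7 alone had groups without overlap, with 5.85 to 6.93 RPKM in KI sham and 7.24 to 7.71 RPKM in WT sham hearts, as did 3.27% of all genes.

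Set side by side, the median log2 difference of the 8 members, Fzd2 included, was 0.04 in WT hearts (0.04 for all genes tested). In KI hearts it was -0.28 (-0.10 for all genes). These medians contain the TAC levels of Fzd2 that selected it, and are a description. Fzd2 left out, groups did not overlap for 1 of 7 members in WT TAC against WT sham (Fzd1, higher), when 35.1% of all genes had this, and for 2 of 7 in KI TAC against KI sham (Fzd7 and Lrp5, lower), when 38.3% had this. In KI TAC against WT TAC the median was -0.31 over the members and -0.12 over all genes, and 4 members were lower without overlap and 1 higher. For that contrast 11% of all genes passed the threshold (2.92% higher and 8.13% lower) and 29.5% did not overlap, figures given for completeness because it chose the group. In it Fzd8 had a log2 difference of -0.10, which became 0.023 with quantile normalization and 0.034 with median-ratio scaling. Wnt9a had 0.0059, and lay between -0.0066 and 0.14 over the processing alternatives. With 1 mouse left out Fzd8 ran from -0.40 to 0.080 and Wnt9a from -0.38 to 0.33.

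The summed level of the 9 Frizzled genes in the table was 61.7 to 68.0 RPKM in WT sham hearts and 81.9 to 86.2 RPKM in WT TAC hearts, without overlap. In KI hearts it was 54.5 to 77.4 RPKM after sham and 50.1 to 67.0 RPKM after TAC, with overlap. The makeup moved with it. Fzd4 was 34.6% ± 8.33 (SD, n = 3) of the sum in WT sham and 18.8% ± 4.53 in WT TAC hearts, while Fzd1 went from 19.6% ± 2.81 to 34.3% ± 2.33 and Fzd2 from 9.06% ± 2.34 to 17.7% ± 2.22. In KI hearts Fzd4 was 33.5% ± 5.42 after sham and 39.4% ± 7.69 after TAC, Fzd1 went from 20.1% ± 5.82 to 26.4% ± 7.96, and Fzd2 went from 11.4% ± 2.93 to 4.20% ± 3.10. Fzd1 was the largest single Frizzled in every WT TAC heart and Fzd4 in every heart of the other groups. These shares add to a whole within a heart, so they do not move independently. The sum and the shares contain the TAC levels of Fzd2 that selected it, and are a description.

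**Figure D3:**
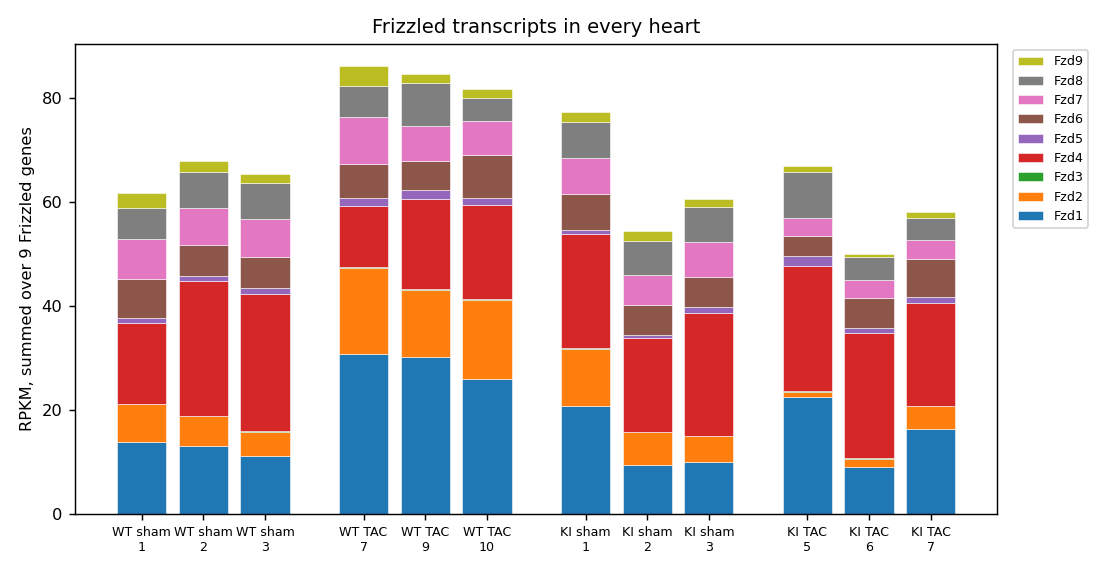
RPKM summed over the 9 Frizzled genes in the table, 1 bar a heart, stacked by gene from Fzd1 at the bottom. WT TAC bars reach 81.9 to 86.2 RPKM with Fzd1 the tallest band, and Fzd2 is a thin band in KI TAC hearts.

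Genes most like Fzd2 over the 12 hearts were found by the mean absolute difference of standardized log2(RPKM + 1), where the median of the 11239 other genes was 0.965 SD. The nearest were Mrgprf (0.208), Eda (0.221), Prex1 (0.226), Zfp324 (0.227) and B3gnt9 (0.242). Prex1, for example, lay at 6.57 to 7.54 RPKM in WT TAC and 1.37 to 2.69 RPKM in KI TAC hearts. Among the members Fzd7 was nearest to Fzd2 (0.542, rank 746), then Fzd1 (0.623, rank 1382), and Fzd4 was farthest (1.49, rank 11085). These distances contain the TAC levels that selected Fzd2, so the TAC values of a near gene follow from how it was found. They are a description of 12 hearts, and no test was made of them.

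Of 98 other genes listed for the Wnt pathway, 68 were in the table and 58 were tested. After TAC in WT hearts 6 were higher and 1 lower, 12.1% of those tested against 11.6% of all genes. In KI hearts 6 were higher and 10 lower, 27.6% against 23.3% of all genes, so both shares were close to the background. The median log2 difference was 0.14 in WT hearts (0.04 for all genes) and -0.16 in KI hearts (-0.10 for all genes). With median-ratio scaling the calls were 5 higher and 3 lower in WT and 7 higher and 8 lower in KI hearts, and over all genes the share of higher calls moved from 36.8% to 51.5% in KI and from 60.2% to 51.1% in WT hearts. The WT count fell from 7 to 4 without WT sham mouse 2 or mouse 3, and the KI count fell from 16 to 9 without KI sham mouse 3 and to 7 without KI TAC mouse 6. Of the 23 calls, 11 held under all 18 alternatives.

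**Figure D4:**
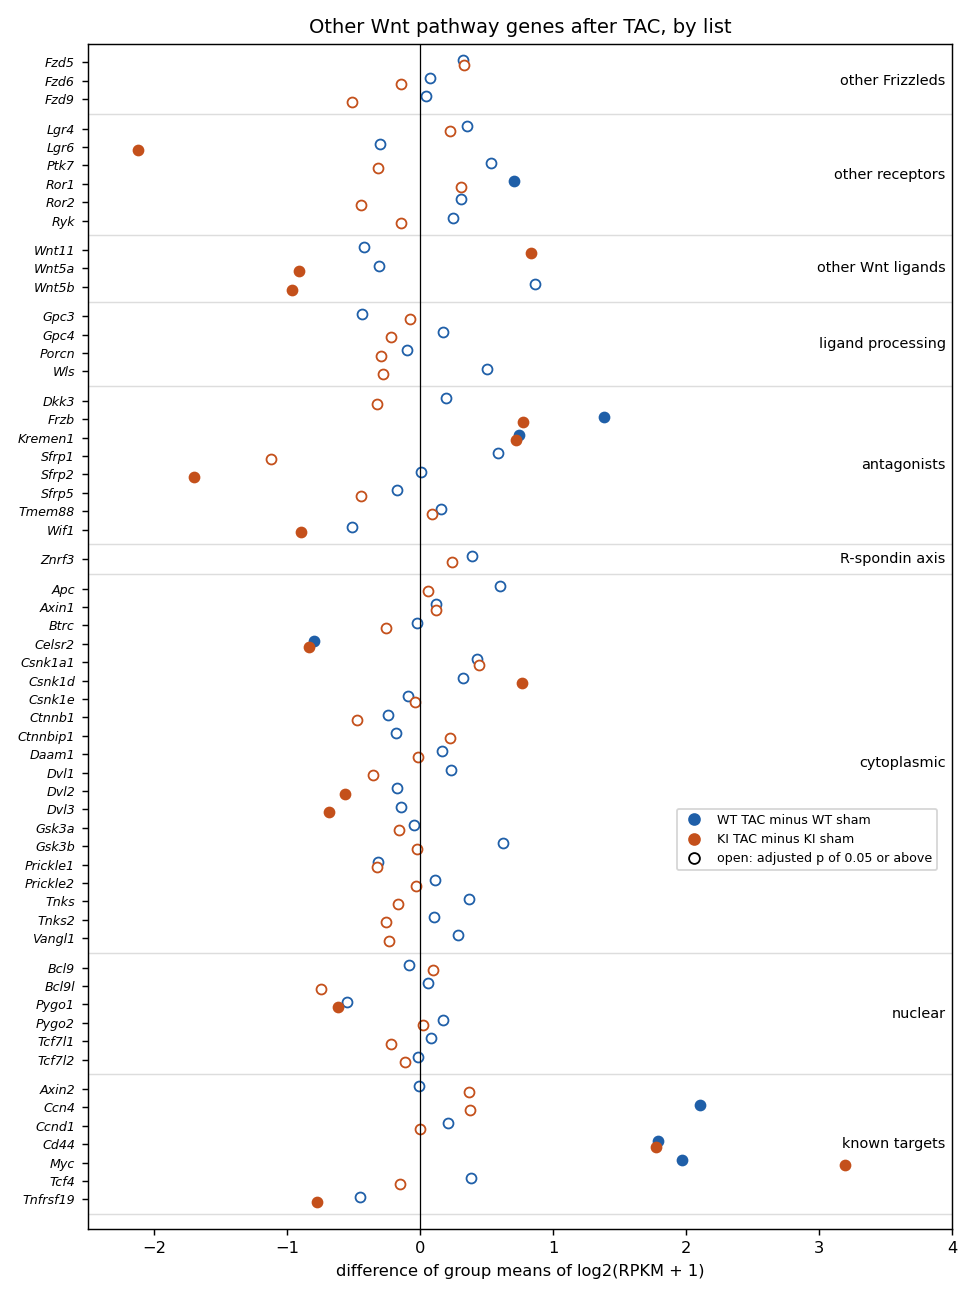
Difference of group means of log2(RPKM + 1) for the 58 other Wnt pathway genes tested, by list, in WT TAC against WT sham (blue) and KI TAC against KI sham (orange); filled points have a limma adjusted p under 0.05. Besides Wnt9a, which is not drawn, 3 Wnt ligands were tested, and they are filled in KI hearts and open in WT hearts; the test of the difference between genotypes stands in the text.

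Of 18 other ligands listed, Wnt5a, Wnt5b and Wnt11, which signal largely outside the β-catenin branch, were the 3 tested. All 3 passed the threshold in KI hearts, in 2 directions, where 23.3% of all genes passed it, while Wnt9a did not. Wnt11 measured 4.92, 6.15 and 5.01 RPKM in KI sham and 12.02, 11.98 and 7.45 RPKM in KI TAC hearts, a log2 difference of 0.83 ± 0.20 (SE, limma adjusted p = 0.00917). Every KI TAC heart was above every other heart of the 12. In WT hearts it measured 6.91, 5.85 and 4.74 RPKM after sham and 4.17, 4.69 and 3.38 RPKM after TAC, a log2 difference of -0.42 ± 0.20 (SE, limma adjusted p = 0.184).

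Wnt5a fell in KI hearts, from 3.01, 1.44 and 2.05 RPKM to 0.633, 0.573 and 0.750 RPKM (log2 difference -0.91 ± 0.21, SE, limma adjusted p = 0.00666). Every KI TAC heart was below every KI sham heart. Wnt5b fell in KI hearts by 0.96 ± 0.29 (SE, limma adjusted p = 0.0305), and lay at 0.86 ± 0.29 in WT hearts (SE, limma adjusted p = 0.0728). The Wnt5b call was lost without KI sham mouse 1 or 2 or KI TAC mouse 5 or 6, with limma adjusted p up to 0.108. The difference of the change between genotypes passed for none of these ligands (limma adjusted p of the interaction = 0.104 for Wnt11, 0.351 for Wnt5a and 0.104 for Wnt5b). It did pass for Wnt11 and Wnt5b without WT TAC mouse 9 (limma adjusted p = 0.0381 and 0.0416) and without KI TAC mouse 7 (0.0243 and 0.0482).

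Of the other Frizzled genes Fzd5, Fzd6 and Fzd9 were tested and none passed in either genotype. Fzd5, the relative of Fzd8, had a log2 difference of 0.32 ± 0.15 in WT and 0.33 ± 0.15 in KI hearts (SE, limma adjusted p = 0.186 and 0.136), and Fzd6 had 0.07 ± 0.20 and -0.14 ± 0.20 (SE). Fzd9 had 0.04 ± 0.20 in WT and -0.51 ± 0.20 in KI hearts (SE, limma adjusted p = 0.919 and 0.0852). Groups did not overlap for Fzd5 in WT hearts (higher) and for Fzd9 in KI hearts (lower), when 35.1% and 38.3% of all genes had this. Of 6 other receptors tested, 1 rose in WT and 1 fell in KI hearts, 16.7% of the list in each, where 11.6% and 23.3% of all genes passed. Ror1, a receptor tyrosine kinase for Wnt5a, rose in WT hearts by a log2 difference of 0.70 ± 0.22 (SE, limma adjusted p = 0.0491), a call kept under 6 of 18 alternatives. Its relative Ror2 had 0.31 ± 0.17 in WT (SE, limma adjusted p = 0.245) and -0.44 ± 0.17 in KI hearts (SE, limma adjusted p = 0.0676). Lgr6, a receptor of R-spondins, also fell in KI hearts. It measured 47.0, 26.2 and 28.1 RPKM in KI sham and 6.23, 7.72 and 6.29 RPKM in KI TAC hearts, with no overlap (log2 difference -2.12 ± 0.37, SE, limma adjusted p = 0.00133). In WT hearts Lgr6 overlapped between the groups at -0.30 ± 0.37 (SE, limma adjusted p = 0.628), and the difference between genotypes did not pass (limma adjusted p of the interaction = 0.162, and 0.0339 without WT TAC mouse 9).

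Among 8 antagonists tested, 2 rose in WT hearts, and 2 rose and 2 fell in KI hearts. That is 25% and 50% of the list, where 11.6% and 23.3% of all genes passed. Frzb, a secreted decoy of Wnt ligands, rose in both genotypes. It had a log2 difference of 1.38 ± 0.23 in WT hearts (SE, limma adjusted p = 0.00234) and 0.77 ± 0.23 in KI hearts (SE, limma adjusted p = 0.0260). Kremen1, which with Dkk proteins removes Lrp6 from the membrane, rose by 0.74 ± 0.22 in WT and by 0.72 ± 0.22 in KI hearts (SE, limma adjusted p = 0.0413 and 0.0292). Sfrp2 fell in KI hearts by 1.70 ± 0.52 (SE, limma adjusted p = 0.0315) and Wif1 by 0.90 ± 0.30 (SE, limma adjusted p = 0.0462), and both bind Wnt ligands outside the cell. Sfrp1 had -1.12 ± 0.50 in KI hearts (SE, limma adjusted p = 0.122) and Dkk3 -0.32 ± 0.27 (SE, limma adjusted p = 0.414). In WT hearts WT TAC mouse 10 stood apart for Sfrp1 at 28.1 RPKM and Sfrp2 at 18.03 RPKM, against at most 7.43 and 2.85 RPKM in the other WT TAC hearts. No gene of the ligand processing list (4 tested) and not Znrf3, the 1 tested gene of the R-spondin list besides its receptors, passed the threshold in either genotype.

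The list of cytoplasmic genes also held membrane proteins such as Celsr2. Of its 20 tested genes 1 fell in WT hearts, and 1 rose and 3 fell in KI hearts. That is 5% and 20% of the list, where 11.6% and 23.3% of all genes passed. The Dishevelled genes relay the Frizzled signal, and in KI hearts Dvl2 fell by 0.56 ± 0.15 (SE, limma adjusted p = 0.0137) and Dvl3 by 0.68 ± 0.22 (SE, limma adjusted p = 0.0387), while Dvl1 had -0.36 ± 0.23 (SE, limma adjusted p = 0.281). Csnk1d, a casein kinase, rose in KI hearts by a log2 difference of 0.76 ± 0.17 (SE, limma adjusted p = 0.00568). Celsr2, a membrane cadherin of planar polarity, fell by 0.80 ± 0.19 in WT and by 0.84 ± 0.19 in KI hearts (SE, limma adjusted p = 0.0149 and 0.00647). Ctnnb1, the gene of β-catenin, had -0.24 ± 0.17 in WT and -0.48 ± 0.17 in KI hearts (SE, limma adjusted p = 0.365 and 0.0532). Of 6 nuclear genes 1 passed: Pygo1, a coactivator of β-catenin, fell in KI hearts by 0.62 ± 0.17 (SE, limma adjusted p = 0.020).

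Of 7 known β-catenin target genes tested, 3 rose in WT hearts, and 2 rose and 1 fell in KI hearts, 42.9% of the list in each, where 11.6% and 23.3% of all genes passed. Axin2, the most widely used readout of β-catenin signaling, had a log2 difference of -0.01 ± 0.17 in WT (SE, limma adjusted p = 0.988, 1.33 to 1.68 RPKM in all WT hearts) and 0.36 ± 0.17 in KI hearts (SE, limma adjusted p = 0.141). It measured 0.892 to 1.26 RPKM in KI sham hearts, below every WT heart, and 1.12 to 2.63 RPKM in KI TAC hearts. Those that rose were Myc and Cd44 in both genotypes and Ccn4 in WT hearts. Myc and Cd44 also answer to growth factor and inflammatory signals. Myc rose by a log2 difference of 1.97 ± 0.41 in WT and 3.19 ± 0.41 in KI hearts (SE, limma adjusted p = 0.00846 and 0.000206). Cd44 rose by 1.79 ± 0.28 and 1.77 ± 0.28 (SE, limma adjusted p = 0.00142 and 0.000712).

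Ccn4, a secreted matricellular protein, measured 0.196, 0.889 and 0.456 RPKM in WT sham and 5.32, 6.65 and 4.44 RPKM in WT TAC hearts (log2 difference 2.11 ± 0.25, SE, limma adjusted p = 0.000241). In KI hearts it measured 0.794, 0.345 and 0.487 RPKM after sham and 0.635, 0.562 and 2.06 RPKM after TAC (log2 difference 0.37 ± 0.25, SE, limma adjusted p = 0.289). WT TAC hearts lay above all others, though the difference between genotypes did not pass (limma adjusted p of the interaction = 0.0988, 0.0381 without WT TAC mouse 9 and 0.0108 without KI TAC mouse 7). Tnfrsf19 fell in KI hearts by 0.77 ± 0.22 (SE, limma adjusted p = 0.0208).

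Several of these calls were lost without 1 mouse or with other processing. Kremen1 in WT hearts kept its call under 9 of 18 alternatives, Dvl3 under 8 and Wif1 under 6, with limma adjusted p up to 0.152, 0.133 and 0.166. Each of these was lost with median-ratio scaling. Dvl3 and Wif1 were also lost with quantile normalization, Kremen1 and Dvl3 with the 2 groups alone, and Wif1 with a pseudocount of 0.1 or no filter. Without KI TAC mouse 6 the calls in KI hearts of Sfrp2, Frzb, Kremen1, Pygo1, Tnfrsf19 and Dvl2 were lost, and without KI sham mouse 3 those of Frzb, Kremen1, Pygo1, Tnfrsf19 and Dvl2. Further losses without 1 mouse were those of Sfrp2 (KI sham mouse 1 or 2, KI TAC mouse 5 or 7), Frzb and Tnfrsf19 (KI sham mouse 1, KI TAC mouse 7), Kremen1 (KI sham mouse 2, KI TAC mouse 7), Pygo1 (KI TAC mouse 5) and, in WT hearts, Celsr2 (WT sham mouse 2 or 3). Over all alternatives the limma adjusted p of these KI calls reached 0.0984 for Sfrp2, 0.0963 for Frzb, 0.0936 for Kremen1, 0.0920 for Pygo1, 0.0782 for Tnfrsf19 and 0.0576 for Dvl2, and that of Celsr2 in WT hearts 0.0626.

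Markers of the cell types of the heart were read beside these genes, because in whole-heart RNA fewer cells of a type and less RNA per cell cannot be told apart. The summed level of 9 fibroblast markers was 162 to 239 RPKM in WT sham, 174 to 819 RPKM in WT TAC, 192 to 313 RPKM in KI sham and 137 to 225 RPKM in KI TAC hearts. None of the 9 passed in WT hearts, where 11.6% of all genes did. Lum alone passed in KI hearts, where 23.3% of all genes did, lower by 1.14 ± 0.39 on the log2 scale (SE, limma adjusted p = 0.0476). The median log2 difference of the list was 0.51 in WT hearts (0.04 for all genes) and -0.30 in KI hearts (-0.10 for all genes). Pdgfra (0.58) and Ddr2 (0.51) alone were higher in WT hearts without overlap, when 35.1% of all genes did not overlap. The highest sum was that of WT TAC mouse 10, with Col1a1 at 461 RPKM and Col3a1 at 151 RPKM, the heart that was also high for Sfrp1 and Sfrp2. None of 8 endothelial markers passed in either genotype (258 to 352 RPKM summed over all hearts).

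Of 7 macrophage markers 3 were higher after TAC in WT hearts and 1, Csf1r, was lower in KI hearts, where 11.6% and 23.3% of all genes passed, with sums of 102 to 163 RPKM in WT sham, 174 to 278 RPKM in WT TAC, 111 to 136 RPKM in KI sham and 141 to 167 RPKM in KI TAC hearts. In KI hearts Cd68, Mrc1, C1qa and C1qb had log2 differences of 0.65, 0.84, 0.44 and 0.61, with TAC hearts above all sham hearts, and Adgre1 had -0.50, with TAC hearts below them. None of these 5 passed (limma adjusted p from 0.053 to 0.226), and 38.3% of all genes did not overlap in this comparison. Lyz2 overlapped in KI hearts at 0.09 (limma adjusted p = 0.837). Neutrophil markers (3 tested) were higher after TAC for 2 in WT and 3 in KI hearts, at sums of at most 1.27 RPKM in sham and 3.69 to 20.3 RPKM in TAC hearts, and S100a8 and S100a9 were each at 0 in 1 sham heart. Of 8 mural markers 1 was higher and 1 lower in WT and 1 lower in KI hearts. Of 8 cardiomyocyte markers Myh6 and Atp2a2 fell in WT hearts and Pln in KI hearts, and the 1 mesothelial marker tested passed in neither. The part of these cell types in the changes of Fzd1, Fzd7 and the other genes was not tested.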

How the data were processed

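Per the labels and methods, the authors took poly(A) RNA with a RIN above 7.0, made strand-specific libraries and read 75 bases. Reads were trimmed with Trimmomatic 0.39, mapped with HISAT2 2.2.1 to GRCm38 and counted on Ensembl genes with HTSeq 0.6.1. The submitters' processing notes also name edgeR 3.18.1, limma 3.32.10 and R 4.1.1. The deposited values were taken as RPKM made by the authors per library, because values times exon length (GENCODE M21) sum to 997559 to 1002030 in each mouse. The step from counts to these values is not given in the sources used here. Whole reads were recovered for 96.0% to 97.7% of low values (tolerance 0.02). Of 13552 genes, 13541 matched the annotation.

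A gene was tested if at least 3 mice reached 1 RPKM (11240 genes). With limma 3.58.1 (R 4.3.3), lmFit and eBayes with a trend were applied to log2(RPKM + 1) of 12 mice in 4 groups, with Benjamini-Hochberg adjustment over all genes and a threshold of 0.05. The method was tested on simulated data. Groups came from the labels. Nothing says that the mice shared litters, and p-values measure the spread between these mice. Alternatives were a pseudocount of 0.1, no filter, quantile normalization, median-ratio scaling, limma-voom on recovered reads, the 2 groups alone, each mouse left out, and a block on mouse number in the sham groups. The members and gene lists were chosen with earlier results of these data known. Named were all members, each other Wnt gene past the threshold after TAC (up to the 4 largest per list), the fixed genes Axin2, Sfrp1, Sfrp2, Dkk3, Ctnnb1, Dvl1, Wnt5a, Ror2, Fzd5 and Fzd6, and the 5 genes nearest to Fzd2, passing over predicted genes. Fzd9, Ptk7, Znrf3, Cd68, Mrc1, C1qa, C1qb, Adgre1, Lyz2, Pdgfra, Ddr2, S100a8 and S100a9 were picked after their values were seen. Sequences are from RefSeq, and the promoter table used here held 4 of 8 members. Intervals of 95% are those of limma.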

Additional observations from a re-analysis of the deposited data

Results flagged for a closer look

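In both results below the TAC hearts lay on one side of all sham hearts in WT mice and on the other side in KI mice. For Fzd2 the change after TAC in KI hearts minus that in WT hearts was -2.60 on the log2 scale. The difference was not tested, because it contains the contrast that chose Fzd2, and for the same reason its pattern is a description. With any 1 mouse left out Fzd2 lay between -2.74 and -2.05 in KI TAC against WT TAC. For Wnt11 the WT groups were barely apart, with at most 4.69 RPKM after TAC and at least 4.74 RPKM after sham, and the WT difference of -0.42 did not pass (limma adjusted p = 0.184). Its change in KI hearts minus that in WT hearts was 1.25 ± 0.28 (SE), with a limma adjusted p of 0.104 for the interaction of genotype and surgery, which missed the threshold but passed it without WT TAC mouse 9 (0.0381) or KI TAC mouse 7 (0.0243). No gene passed it in the interaction with limma, where 1668 genes had an unadjusted p under 0.05, and none with limma-voom, where 1691 had. Without WT TAC mouse 9 the interaction had 240 calls, without KI TAC mouse 7 it had 182 and without WT TAC mouse 10 it had 8. Of the other Wnt genes 5 were called without WT TAC mouse 9 (Ccn4, Lgr6, Sfrp1, Wnt5b and Wnt11) and 4 without KI TAC mouse 7 (Ccn4, Ptk7, Wnt5b and Wnt11).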

How the results depend on the processing

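The count of members past the threshold was 0 to 1 in WT TAC against WT sham and 1 to 2 in KI TAC against KI sham when 1 mouse was left out. It was 2 in KI hearts (Fzd7 and Lrp5) with a pseudocount of 0.1, no filter or limma-voom. The count of other Wnt genes was 4 to 9 in WT and 7 to 18 in KI hearts without 1 mouse. Fzd2 in KI TAC against WT TAC was -2.87 with limma-voom. Uncalled log2 differences that changed sign without 1 mouse ranged as follows. In WT hearts Fzd7 ran from -0.14 to 0.053, Fzd8 from -0.27 to 0.093 and Lrp6 from -0.087 to 0.20. In KI hearts Fzd1 ran from -0.041 to 0.58, Fzd4 from -0.017 to 0.19 and Wnt9a from -0.21 to 0.51. Between the sham groups Fzd1 ran from -0.36 to 0.17, Fzd2 from -0.015 to 0.48, Fzd4 from -0.30 to 0.066, Fzd8 from -0.017 to 0.072, Lrp5 from -0.12 to 0.0055, Lrp6 from -0.054 to 0.26 and Wnt9a from -0.036 to 0.24. The cause was not tested. Mouse numbers are shared by the sham groups. The deviations of same-numbered mice from their group means had r = -0.22, -0.30 and 0.44, and mouse 3 alone correlated best with its own number. With 3 mice a group these values cannot settle whether the numbers mark pairs. With the replicate block 0 members passed, as without it.

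With 3 mice a group, differences of the size of the SEs given could not be detected. KI sham mouse 1 and WT TAC mouse 10 lay apart for several genes.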
